A study of Mus musculus with 10 samples.

Results

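The core circadian clock loop comprises 10 genes here: the activators Arntl, Clock and Npas2, the repressors Per1, Per2, Per3, Cry1 and Cry2, and the nuclear receptor genes Nr1d1 and Nr1d2. They were chosen by name, with earlier results of these data known. All 10 were found among the 55450 genes of the count table and had enough counts to be tested. Messenger RNA was sequenced from corneal endothelium, the cell layer on the inner face of the cornea that keeps it clear by moving fluid out, in C57BL/6 mice 12 weeks old. The mutant mice lacked both copies of Slc4a11 (Slc4a11-/-, KO) and their comparison carried both (Slc4a11+/+, WT). Slc4a11 encodes a transporter of the corneal endothelial cell membrane. There were 5 libraries of each genotype, and each was one pool of peelings from 6 eyes of 3 animals, so errors below are the spread between pools. The labels say neither how the null allele was made nor at what time of day eyes were collected. For genes that cycle daily, a different hour of collection or clock phase between genotypes therefore cannot be told apart from a changed level.

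The mammalian clock is a loop of transcription and translation with a period of about a day. ARNTL, also called BMAL1, pairs with CLOCK or with its relative NPAS2, and the pair binds E-boxes in the promoters of the Per, Cry and Nr1d genes. PER and CRY proteins return to the nucleus and block the pair. In a second loop, NR1D1 and NR1D2 (REV-ERB alpha and beta) repress Arntl through ROR elements, where RORs activate it. In most mouse tissues with a running clock Arntl and Npas2 peak at another time of day than Per and Nr1d transcripts, and the cornea is known to hold a clock of its own.

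Promoter windows of 5 members are shown because they hold letters of motifs known from the loop, which are in capitals. Sequences are from RefSeq (GRCm38.p6), 300 bases each, from 250 before to 50 from the annotated start, written 5′ to 3′ on the gene's own strand, with position 1 at the start.
Arntl promoter: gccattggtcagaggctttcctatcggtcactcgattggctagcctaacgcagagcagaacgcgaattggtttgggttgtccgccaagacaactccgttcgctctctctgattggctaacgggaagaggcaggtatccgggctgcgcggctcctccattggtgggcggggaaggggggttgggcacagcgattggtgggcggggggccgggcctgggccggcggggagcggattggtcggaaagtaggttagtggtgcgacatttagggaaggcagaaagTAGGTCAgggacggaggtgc
Per1 promoter: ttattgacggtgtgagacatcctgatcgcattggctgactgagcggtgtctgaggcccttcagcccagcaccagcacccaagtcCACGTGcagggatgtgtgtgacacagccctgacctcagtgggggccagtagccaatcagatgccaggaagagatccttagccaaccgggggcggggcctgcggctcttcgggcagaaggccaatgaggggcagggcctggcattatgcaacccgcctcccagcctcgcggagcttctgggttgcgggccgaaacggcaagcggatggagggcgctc
Per3 promoter: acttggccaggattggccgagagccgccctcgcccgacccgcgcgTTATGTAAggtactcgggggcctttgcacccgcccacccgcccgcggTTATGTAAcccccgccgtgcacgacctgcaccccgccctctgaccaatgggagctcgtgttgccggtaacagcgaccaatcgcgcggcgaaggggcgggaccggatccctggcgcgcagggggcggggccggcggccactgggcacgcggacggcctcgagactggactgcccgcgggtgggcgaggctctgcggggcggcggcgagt
Cry1 promoter: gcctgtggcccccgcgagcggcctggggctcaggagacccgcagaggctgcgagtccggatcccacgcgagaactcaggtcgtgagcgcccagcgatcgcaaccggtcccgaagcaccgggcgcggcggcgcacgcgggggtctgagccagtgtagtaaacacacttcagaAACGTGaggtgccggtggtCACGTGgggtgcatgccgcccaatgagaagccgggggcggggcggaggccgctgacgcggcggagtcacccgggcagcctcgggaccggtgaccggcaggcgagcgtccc
Nr1d1 promoter: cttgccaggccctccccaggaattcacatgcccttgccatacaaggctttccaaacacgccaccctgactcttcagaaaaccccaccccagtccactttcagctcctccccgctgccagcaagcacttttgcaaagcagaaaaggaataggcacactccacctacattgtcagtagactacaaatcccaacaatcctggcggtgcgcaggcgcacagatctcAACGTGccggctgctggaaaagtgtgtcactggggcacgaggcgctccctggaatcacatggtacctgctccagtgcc
The Arntl window (chr7:113207261-113207560, plus strand) is the second of 2 annotated starts and held 1 ROR element core, at positions 31 to 37. The Per1 window (chr11:69098699-69098998, plus strand), the first of 2, held an E-box at -166 to -161. The Per3 window (chr4:151044616-151044915, minus strand) held 2 D-boxes, at -205 to -198 and at -158 to -151. D-boxes are bound by the activators DBP, TEF and HLF and by the repressor NFIL3. The Cry1 window (chr10:85185005-85185304, minus strand) held an E-box at -60 to -55 and an E-box variant at -79 to -74. The Nr1d1 window (chr11:98775328-98775627, minus strand) held the variant at -28 to -23.

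The motifs searched, on both strands, were CACGTG (E-box, in 7.15% of the 32851 promoter windows in the table), CACGTT (E-box variant, 4.68%), TTATGTAA or TTACGTAA (D-box, 1.06%), TAGGTCA or TGGGTCA (ROR element core, 6.45%) and TGACGTCA (cyclic AMP response element, 1.79%). No motif overlapped another in the members' windows. RefSeq gave 13 windows for 9 members, all but Per2. Cry2 held 1 E-box variant, at -166 to -161, and the single windows of Npas2 and Nr1d2, the 3 of Clock, the first window of Arntl and the second of Per1 held none of these letters. A match is a string of letters in a window, not a shown binding site.

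Total counts were 36026193 to 49119408 in KO libraries and 37986005 to 51008996 in WT libraries. Each member had between 256 and 18144 reads per library. Counting error was not separated from the spread between pools. It weighs most where reads and spread are both low, as for Cry1 in KO (coefficient of variation 5.00%). Slc4a11 itself stood at 70.1 to 114 CPM (counts scaled to library size, with TMM factors) in KO and 3489 to 4357 CPM in WT, so each library matched its label. The labelled tissue was present in every library: the summed level of 15 corneal endothelial markers was 32401.5 to 38923 CPM in KO and 33929 to 38180.5 CPM in WT, and 2 of the 15 were called lower and none higher in KO. Stromal keratocyte markers summed to 70601 to 94251 CPM in KO and 67138 to 103302 CPM in WT over 12 genes, of which 1 was called higher and 2 lower. These sums are not scaled for the length or number of genes, so they do not rank the cell types. Corneal epithelial markers (14 genes, 11 of them called higher in KO and none lower) summed to 1906, 609, 58.8, 229 and 3649 CPM in KO 1 to KO 5, against 56.5 to 199.9 CPM in WT. KO 1, KO 2, KO 4 and KO 5 were therefore above every WT library and KO 3 was within their range. For scale, 7.59% of all tested genes were called higher in KO and 7.73% lower.

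Of the 10 members 9 were called between genotypes: 3 were higher in KO (Arntl, Npas2 and Cry1), 6 were lower (all 3 Per genes, Cry2, Nr1d1 and Nr1d2), and Clock was not called. The call was an adjusted p under 0.05 in the edgeR quasi-likelihood test over 17729 genes, which called 15.3% of them, 7.59% higher and 7.73% lower in KO. With libraries scaled by total counts alone the split of all calls was 1555 higher and 1054 lower, against 1346 and 1370, and the members' split did not change. The median absolute log2 fold change was 0.61 over the members and 0.15 over the genes tested. KO and WT libraries did not overlap for 7 members, against 12.0% of tested genes. Of these, 2 were wholly higher in KO, against 5.88% of tested genes, and 5 wholly lower, against 6.16%. Because members were chosen with earlier results known, the shares over all genes are given for scale and are no test. In whole pools of tissue, fewer cells of a type and less RNA per cell cannot be told apart.

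**Figure D1:**
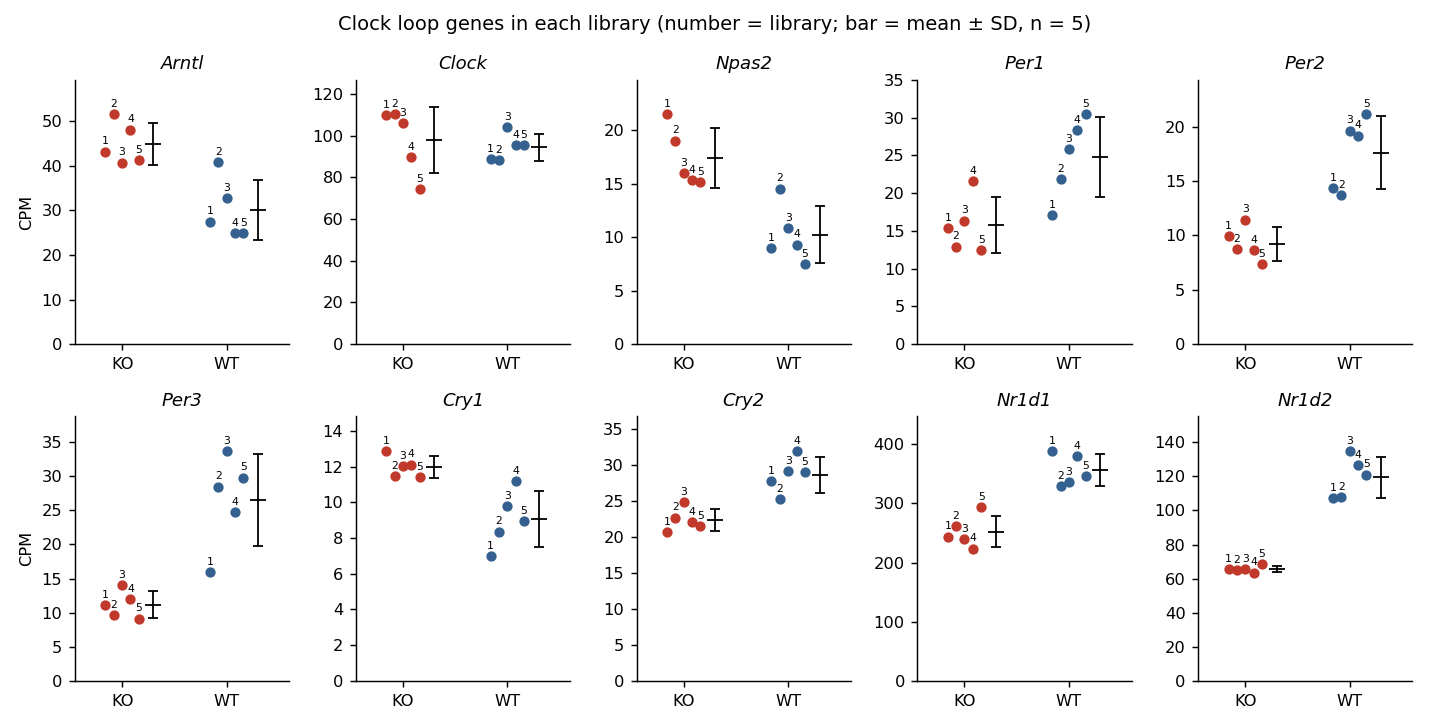
CPM of each clock loop gene in each library, with KO left of WT in every panel, points numbered by library, and bars giving the mean and SD of 5 libraries. Npas2 and Cry1 lie wholly higher in KO, Per2, Per3, Cry2, Nr1d1 and Nr1d2 wholly lower, while Arntl, Per1 and Clock overlap.

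The activators behaved unequally, with Npas2 and Arntl higher in KO and Clock not called. Npas2, the CLOCK relative that can replace it as a partner of ARNTL, had 21.5, 19.0, 16.0, 15.3 and 15.2 CPM in KO 1 to KO 5, against 8.996, 14.6, 10.8, 9.32 and 7.53 CPM in WT 1 to WT 5. The lowest KO library was above WT 2, the highest of WT. Npas2 averaged 17.4 ± 2.78 CPM in KO and 10.2 ± 2.68 CPM in WT (SD, n = 5 each), a log2 fold change of 0.76 (SE 0.16, edgeR adjusted p = 0.0090).

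Arntl, the partner common to both activator pairs, had 43.1, 51.5, 40.7, 48.0 and 41.1 CPM in KO 1 to KO 5 and 27.5, 40.8, 32.6, 24.9 and 24.9 CPM in WT 1 to WT 5. The groups met at 1 point: KO 3 lay just under WT 2, and the other 4 KO libraries lay above all of WT. The means were 44.9 ± 4.71 CPM in KO and 30.1 ± 6.73 CPM in WT (SD, n = 5 each), and the log2 fold change was 0.58 (SE 0.13, edgeR adjusted p = 0.013). Its promoter was shown above for the ROR element core, letters that 6.45% of all promoter windows hold. Any link between this match, the Nr1d genes and the level of Arntl was not tested.

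Clock had 109.7, 110.3, 106, 89.7 and 74.3 CPM in KO 1 to KO 5 and 88.6, 88.2, 104, 95.4 and 95.5 CPM in WT 1 to WT 5. KO libraries lay on both sides of the WT range, with KO 1, KO 2 and KO 3 above it and KO 5 below it. Its log2 fold change was 0.05 (SE 0.10, edgeR adjusted p = 0.76). Clock thus differed by less than its spread between pools, with 98.0 ± 15.7 CPM in KO and 94.3 ± 6.45 CPM in WT (SD, n = 5 each).

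All 3 Per genes were lower in KO, Per3 the most. Per3, the member of the family least needed for rhythm in mice, had 11.1, 9.67, 14.1, 12.0 and 9.12 CPM in KO 1 to KO 5, against 15.9, 28.5, 33.7, 24.7 and 29.8 CPM in WT 1 to WT 5. WT 1 was far under the other WT libraries, yet above every KO library. The level was 2.37-fold lower (log2 fold change -1.25, SE 0.18, edgeR adjusted p = 8.8e-04). Its promoter, with 2 copies of TTATGTAA, was the only member window that held a D-box.

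Per2, a repressor that binds CRY proteins, had 9.97, 8.72, 11.4, 8.67 and 7.34 CPM in KO 1 to KO 5, against 14.3, 13.7, 19.6, 19.2 and 21.1 CPM in WT 1 to WT 5. The groups did not overlap, and WT 1 and WT 2 were the WT libraries nearest to KO. The mean was 9.23 ± 1.55 CPM in KO and 17.6 ± 3.36 CPM in WT (SD, n = 5 each), a log2 fold change of -0.93 (SE 0.14, edgeR adjusted p = 0.0015).

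Per1, which besides the clock answers glucocorticoid and cyclic AMP signals, had 15.4, 12.9, 16.4, 21.6 and 12.5 CPM in KO 1 to KO 5, against 17.1, 21.9, 25.9, 28.3 and 30.5 CPM in WT 1 to WT 5. KO 4 lay within the WT range and the other KO libraries below it. The log2 fold change was -0.65 (SE 0.17, edgeR adjusted p = 0.024). This call was among the least secure of the 9. It was lost when WT 3, WT 4, WT 5, KO 1, KO 2 or KO 5 was left out (log2 fold changes of -0.64 to -0.57, edgeR adjusted p of 0.051 to 0.065), while a fit that kept just KO 3 and KO 4 of the KO group gave -0.38 (edgeR adjusted p = 0.32).

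The 2 cryptochromes moved in opposite directions. Cry1, the stronger repressor of the ARNTL pair, had 12.9, 11.5, 12.0, 12.1 and 11.4 CPM in KO 1 to KO 5, against 6.98, 8.36, 9.79, 11.2 and 8.97 CPM in WT 1 to WT 5. KO libraries were tightly grouped, just above WT 4, the highest of WT. It was higher by 0.40 on the log2 scale (SE 0.11, edgeR adjusted p = 0.029), and the call was lost without WT 2, WT 5, KO 1 or KO 4 (log2 fold changes of 0.37 to 0.40, edgeR adjusted p of 0.056 to 0.068). Beyond the promoter E-box shown above, Cry1 is known in mice to be controlled through ROR elements too, which delays its peak behind the Per genes.

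Cry2 had 20.7, 22.7, 24.9, 22.1 and 21.5 CPM in KO 1 to KO 5, against 27.7, 25.2, 29.1, 32.0 and 29.1 CPM in WT 1 to WT 5. The groups came close at KO 3 and WT 2 without overlapping. The log2 fold change, -0.36 (SE 0.07, edgeR adjusted p = 0.0059), was the smallest in size of the 9 called members.

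Both Nr1d genes were lower in KO. Nr1d2 had 65.6, 65.1, 65.6, 63.6 and 68.5 CPM in KO 1 to KO 5, against 107, 108, 135, 126 and 121 CPM in WT 1 to WT 5. The gap between the groups was wide and KO libraries were nearly equal, with a coefficient of variation of 2.72% in KO and 10.1% in WT. The log2 fold change of -0.86 (SE 0.07) had the smallest p of the members, the 32nd smallest of all tested genes (edgeR adjusted p = 1.3e-05).

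Nr1d1 had 244, 261, 239, 223 and 294 CPM in KO 1 to KO 5, against 389, 329, 335, 380.1 and 346 CPM in WT 1 to WT 5. No KO library reached the lowest WT library. The log2 fold change was -0.50 (SE 0.08, edgeR adjusted p = 0.0020). Nr1d1 shares 263 of its 3077 merged exon bases with Thra, a thyroid hormone receptor gene on the opposite strand, and no source used here says whether reads were counted by strand, so those of the pair may be mixed. Thra averaged 192 ± 10.5 CPM in KO and 189 ± 15.1 CPM in WT (SD, n = 5 each; log2 fold change 0.02, edgeR adjusted p = 0.89). Cry2 and Arntl share exon bases with opposite-strand genes that averaged under 0.02 CPM in both genotypes.

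**Figure D2:**
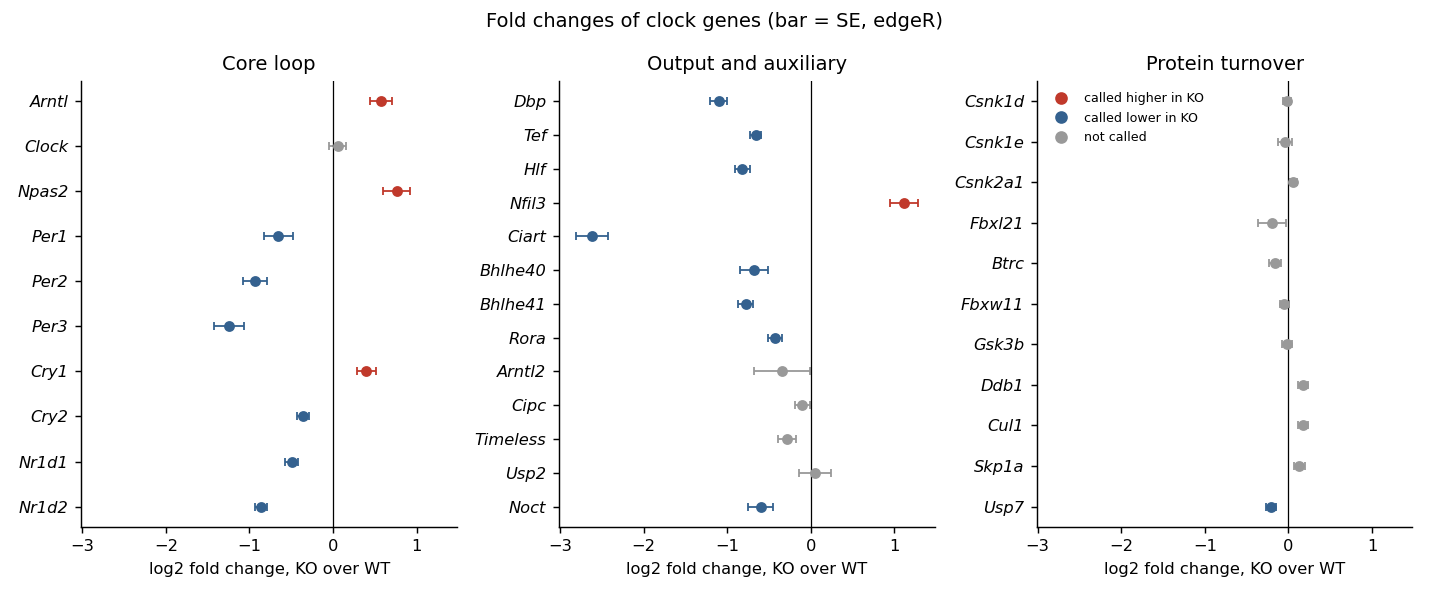
Log2 fold change of KO over WT with its SE from edgeR, for the 10 core loop genes and for output, auxiliary and protein turnover genes reported here, coloured by call. Core loop members span -1.25 for Per3 to 0.76 for Npas2, while turnover genes lie near 0.

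Compared per kilobase of merged exons, Nr1d1 was the most abundant member and the Per genes the least abundant in KO. Nr1d1 stood at 82.0 ± 8.74 CPM per kb in KO and 116 ± 8.79 in WT (SD, n = 5 each), and Nr1d2 followed at 12.1 ± 0.330 in KO and 22.1 ± 2.22 in WT. Clock was next in both genotypes, at 7.14 ± 1.14 CPM per kb in KO and 6.87 ± 0.470 in WT. Neither Nr1d gene overlapped the gene after it in the order, in either genotype.

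Below Clock the order differed between genotypes. In KO it ran Arntl (5.97 CPM per kb), Npas2 (3.63), Cry1 (3.58), Cry2 (3.54), Per1 (2.80), Per2 (1.58) and Per3 (1.17). In WT it ran Cry2 (4.53 CPM per kb), Per1 (4.39), Arntl (4.01), Per2 (3.00), Per3 (2.76), Cry1 (2.71) and Npas2 (2.14). In KO, Clock overlapped Arntl in range, as Npas2 did Cry1, Cry1 did Cry2, Cry2 did Per1, and Per2 did Per3. In WT every neighbouring pair from Cry2 down to Npas2 overlapped, so that order is not firm. By its mean Npas2 was thus at place 5 in KO and at place 10, the last, in WT. The KO order of Npas2, Cry1 and Cry2 is not firm either, since Npas2 lay above Cry1 in 2 of 5 KO libraries.

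**Figure D3:**
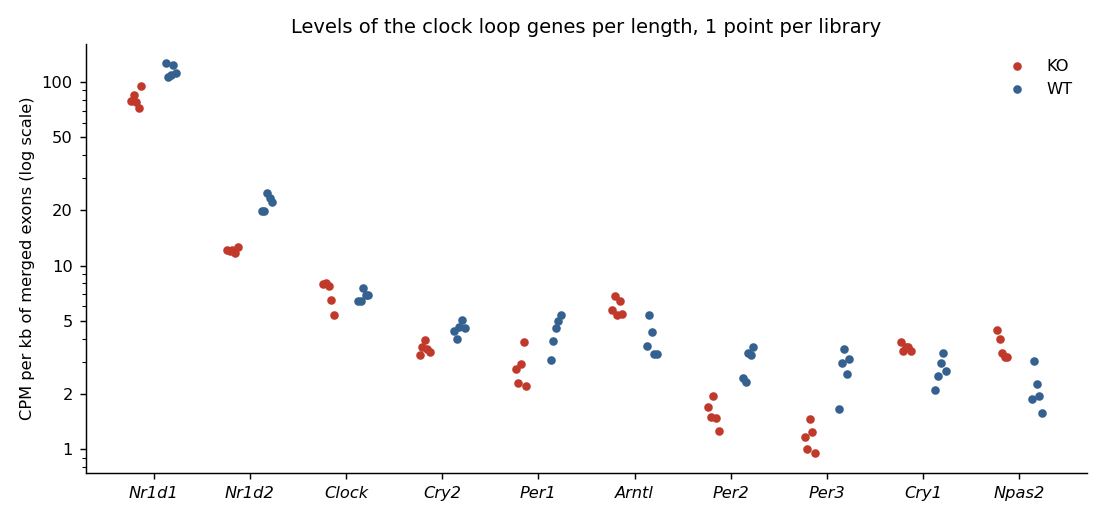
Level of each clock loop gene in CPM per kb of merged exons, on a log axis, 1 point per library, KO left of WT, with genes ordered by their WT mean. Nr1d1 lies far above the rest at 82.0 in KO and 116 in WT, and the genes from Cry2 to Npas2 lie close together in WT.

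Differences between 2 members within the same library do not depend on how libraries are scaled. Arntl minus Nr1d1 on the log2 CPM scale was -2.50, -2.34, -2.56, -2.22 and -2.84 in KO 1 to KO 5, against -3.82, -3.01, -3.36, -3.93 and -3.79 in WT 1 to WT 5. The lowest KO value was above the highest WT value. Arntl minus Per3 was further apart, at 1.53 to 2.41 in KO and -0.26 to 0.78 in WT, a difference of means of 1.81.

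Of 4 pairs of close relatives, 1 separated the genotypes. Cry1 minus Cry2 was -1.05 to -0.68 in KO and -1.98 to -1.51 in WT on that log2 scale, without overlap. Npas2 minus Clock averaged -2.49 ± 0.174 in KO and -3.23 ± 0.389 in WT (SD, n = 5 each), and WT 2 alone among WT libraries lay within the KO range. Nr1d1 minus Nr1d2 averaged 1.94 ± 0.116 in KO and 1.58 ± 0.196 in WT (SD, n = 5 each), with WT 1 inside the KO range. Per1 minus Per2 overlapped widely, at 0.52 to 1.31 in KO and 0.26 to 0.68 in WT. These differences were chosen with the members' results known and are given without a test.

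**Figure D4:**
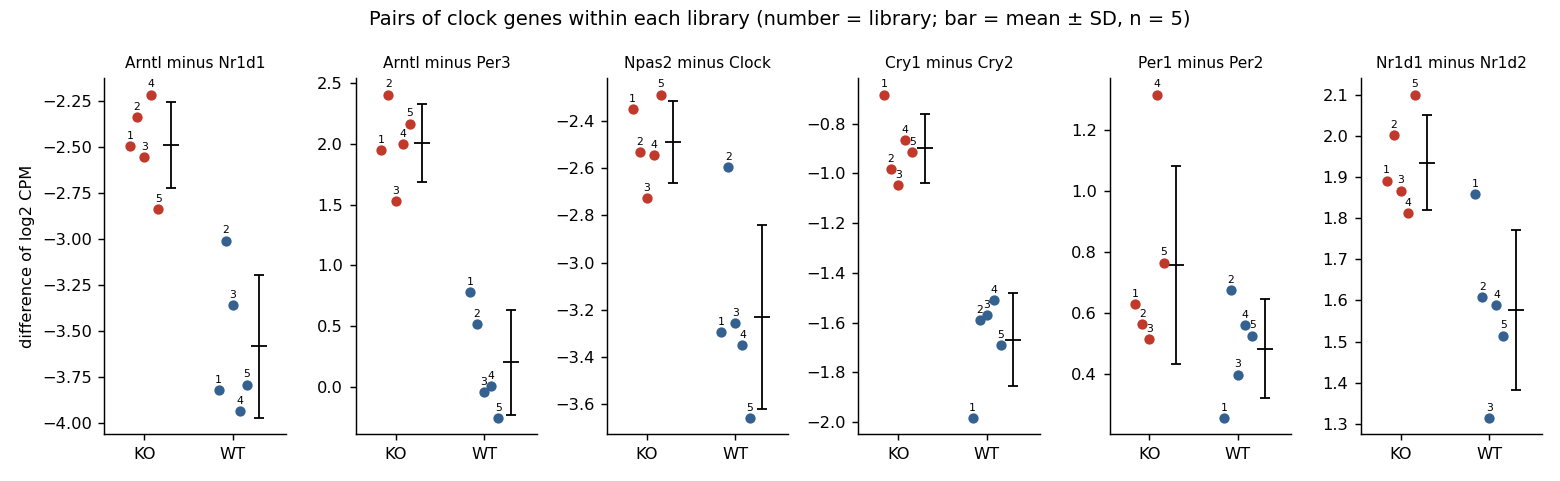
Difference of log2 CPM between 2 clock genes in each library, KO left of WT, points numbered by library, bars giving the mean and SD of 5 libraries. Arntl minus Nr1d1, Arntl minus Per3 and Cry1 minus Cry2 separate the genotypes, with KO higher, and Per1 minus Per2 does not.

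Pools of 1 genotype also differed among themselves. WT 2 had the highest Arntl and Npas2 of WT and the lowest Per2, Cry2 and Nr1d1, which placed it nearest to KO for these genes. WT 1 had the lowest Per1, Per3, Cry1 and Nr1d2 of WT. Among KO libraries KO 5 had the lowest level of 6 members and the highest of Nr1d1 and Nr1d2. The coefficient of variation was smaller in KO than in WT for 7 of the 10 members, and the exceptions were Clock, Per1 and Nr1d1.

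Clock outputs and auxiliary factors, a list that was also chosen with results known, had 2 of 14 tested members higher in KO, 8 lower and 4 not called, beside 7.59% higher and 7.73% lower over all tested genes. Its median log2 fold change was -0.51, against 0.00 over all tested genes. Ciart, a repressor of the ARNTL pair also named CHRONO, had 0.787 to 1.42 CPM in KO and 4.52 to 7.43 CPM in WT, a log2 fold change of -2.61 (SE 0.19, edgeR adjusted p = 8.5e-06). That is larger in size than the change of each core member.

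Dbp, the D-box activator driven by E-boxes, had 71.0, 66.8, 84.6, 76.0 and 99.1 CPM in KO 1 to KO 5, against 171, 155, 164, 188 and 174 CPM in WT 1 to WT 5. No KO library came near WT (log2 fold change -1.10, SE 0.10, edgeR adjusted p = 3.5e-05). Dbp shares 539 of its 2993 merged exon bases with Sphk2 on the opposite strand, which was higher in KO (log2 fold change 0.64, SE 0.08), so its value carries the same limit as Nr1d1. The related activators Tef and Hlf, named after their values were seen, were lower by edgeR too, at -0.66 (SE 0.06) and -0.82 (SE 0.09).

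Nfil3, the D-box repressor, averaged 3.12 ± 0.514 CPM in KO and 1.43 ± 0.290 CPM in WT (SD, n = 5 each) and was higher by 1.12 on the log2 scale (SE 0.16, edgeR adjusted p = 0.0010). Rora, an activator gene chosen for mention with its value known, was lower, at 139 ± 14.8 CPM in KO and 187 ± 18.2 CPM in WT (SD, n = 5 each; edgeR adjusted p = 0.0073).

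Genes that act on clock proteins after translation were mostly not called. Of 12 kinase, ubiquitin ligase and deubiquitinase genes 11 were not called, none rose and 1 fell, Usp7, a deubiquitinase known to act on CRY1, by 0.21 on the log2 scale (SE 0.06, edgeR adjusted p = 0.035). Over all tested genes 7.59% were called higher and 7.73% lower, 15.3% in either direction. A list of 12 is too short to tell its share of calls from these. The median log2 fold change of the 12 was -0.03. The kinase gene Csnk1d, named after its value was seen, stood at -0.01 (SE 0.05, edgeR adjusted p = 0.87).

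The 3 genes whose profile over the 10 libraries lay nearest to that of Arntl, by the root mean square difference of gene-centred log2 CPM among 10631 genes of at least 5 CPM, included Fgd3, an exchange factor for small GTPases (0.17), and the sphingosine kinase gene Sphk2 (0.18), where the median gene was at 0.39. Nearest to Nr1d1 were Fam19a5, which encodes a secreted protein, the iron regulator Hfe and the RNase H subunit gene Rnaseh2b (0.07 each), against a median of 0.31. Among the members themselves Cry2 with Nr1d1 (0.16) and Arntl with Npas2 (0.19) were nearest to each other on that scale. The genes named here were called in the same direction as the member beside them, which the measure favours.

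Markers of other cells and signals stood as follows beside the members' values. With the mean of the epithelial markers as a covariate, Per2, Per3, Nr1d1 and Nr1d2 were called, at log2 fold changes of -0.70, -1.07, -0.58 and -0.87. Without it they stood at -0.93, -1.25, -0.50 and -0.86. Arntl, Npas2, Per1, Cry1 and Cry2 were not called with it, at 0.48, 0.58, -0.42, 0.42 and -0.25. Their values without it were 0.58, 0.76, -0.65, 0.40 and -0.36. The same 5 lost their call when just KO 3 and KO 4 were set against WT, at 0.56, 0.62, -0.38, 0.42 and -0.28. KO 3, whose epithelial markers were within the WT range, lay beyond every WT library in the called direction for 8 of the 9 called members, all but Arntl, and KO 4 for 8, all but Per1. KO 1, KO 2 and KO 5 did so for all 9. These same libraries gave the calls, so such counts were largely set in advance. They are no test of the part of the epithelial markers.

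Immediate early genes, which respond within minutes to many stimuli, summed to 118 to 133 CPM in KO and 68.7 to 92.4 CPM in WT. Of these 14 genes 3 were called higher (Jun, Btg2 and Atf3) and none lower, beside 7.59% higher and 7.73% lower over all tested genes. The mean log2 CPM of the 14 was above the highest WT library in 4 of 5 KO libraries. That mean and genotype are hence hard to separate. With that mean as a covariate only Per3 (edgeR adjusted p = 0.046) and Nr1d2 (edgeR adjusted p = 0.0023) were called, and log2 fold changes were 0.57 for Arntl, 0.83 for Npas2, -0.79 for Per1 and 0.25 for Cry1. Per2, Cry2 and Nr1d1 lost their calls at log2 fold changes of -0.92, -0.40 and -0.56, where the fit without the covariate gave -0.93, -0.36 and -0.50. Glucocorticoid-induced genes summed to 347 to 496 CPM in KO and 382 to 445 CPM in WT over 12 genes including Per1. Of 11 tested, Pdk4 was higher and Per1 was the only one lower, beside 7.59% and 7.73% over all tested genes. A list of 11 is too short to tell its share of calls from these. All 9 calls were kept with that list, less Per1, as a covariate.

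Of 5 lists of markers of other cell types, summed levels did not overlap between genotypes in 2, nerve and muscle, and overlapped in 3. Pigment and iris markers, a further list taken up below, overlapped too, at 13.4 to 24.7 CPM in KO and 11.4 to 17.5 CPM in WT. Nerve and Schwann cell markers summed to 101 to 137 CPM in KO and 80.2 to 93.3 CPM in WT (8 genes, 5 called higher and 1 lower). Smooth muscle and ciliary markers summed to 93.5 to 106 CPM in KO and 133 to 154 CPM in WT (6 genes, 3 of them tested and 2 called lower). Vessel and blood markers summed to 86.1 to 111 CPM in KO and 109.9 to 179 CPM in WT (8 genes, 6 tested and 1 called lower). Retina markers summed to 1.89 to 15.4 CPM in KO and 7.63 to 26.3 CPM in WT (9 genes, 7 tested and 1 called lower), with a median log2 fold change of -1.38 over those tested. Macrophage markers summed to 315 to 505 CPM in KO and 256 to 396 CPM in WT (10 genes, none called). Among all tested genes 7.59% were called higher and 7.73% lower, and KO and WT libraries did not overlap for 12.0%. The part of these marker lists, pigment and iris included, in the members' differences was not tested.

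**Figure D5:**
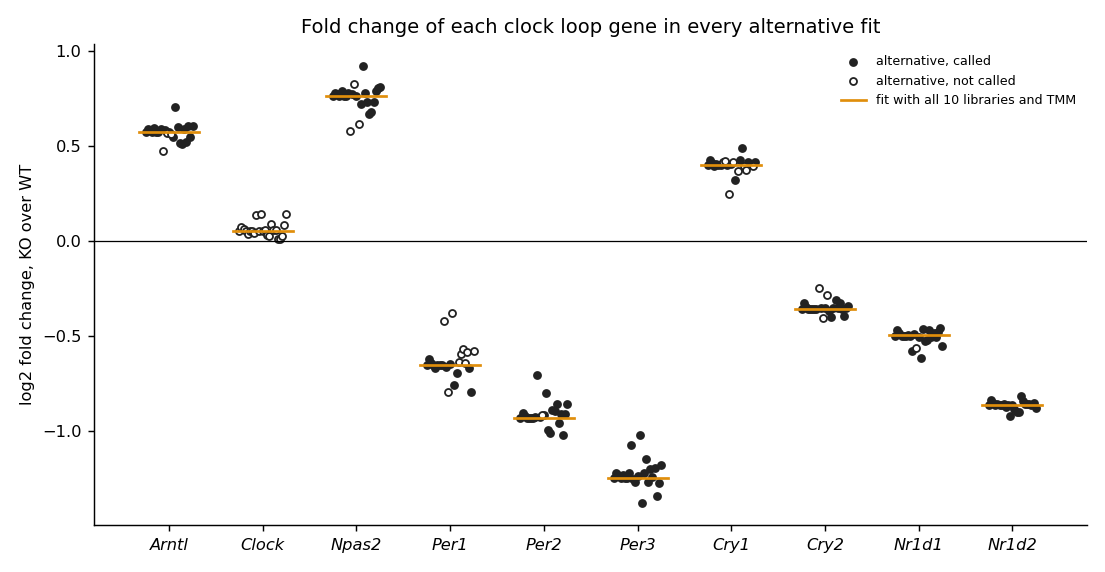
Log2 fold change of KO over WT for each clock loop gene in each alternative fit, filled where called at an adjusted p under 0.05 and open where not, with a line at the value from all 10 libraries. The 9 called genes keep their direction in each fit drawn, Per3 and Nr1d2 keep their call in each, and Per1 and Cry1 lose it most often.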

How the data were processed

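The authors deposited whole-number read counts for each gene in each library. Tools listed in the submitters' processing notes are HISAT2 2.1.0, Subread 1.6.4 with featureCounts, cutadapt 2.4 and Trim Galore 0.6.4, on GRCm38.p6, without the strand setting or the treatment of multiply mapped reads. Libraries were stranded and selected for polyadenylated RNA, per the labels' protocols. All 55450 identifiers matched GENCODE vM21, which gave symbols, coordinates and merged exon lengths. The main test was edgeR 4.0.16 in R 4.3.3 (filterByExpr with minimum count 10 and minimum total 15, TMM scaling, quasi-likelihood F test of KO over WT, no covariate, Benjamini-Hochberg over 17729 genes) and was tested on simulated data. The common biological coefficient of variation was 16.3%. CPM used TMM-scaled library sizes, and log2 CPM a prior count of 2. Alternatives used DESeq2 1.42.0, limma 3.58.1 (voom), other scalings, filters, covariates, a replicate block and libraries left out. Two-sided exact permutation tests of log2 CPM over all 252 assignments gave p = 0.00794, the smallest possible, for the 7 members without overlap, 0.0159 for Arntl and Per1, and 0.802 for Clock. The labels do not say that replicate numbers pair the libraries, and the main test did not use them. No pair of libraries of a group agreed within sampling noise (chi-square over its degrees of freedom was 14.4 to 86.3). Named genes were the 10 members, Slc4a11, the 2 called genes with the smallest p per direction in each other clock list, and the 3 genes nearest to Arntl and to Nr1d1. Some genes of the lists were analysed but are not reported here. Members and lists were chosen with earlier results of these data known.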

Additional observations from a re-analysis of the deposited data

Results flagged for a closer look

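Among 58 groups of 5 libraries examined (the members, the named clock genes, Slc4a11 and the summed marker lists, each in KO and in WT), 1 held a library far from the others, where chance flags about 1 in 20. The 9 pigment and iris markers summed to 24.7 CPM in KO 3, against 13.4 to 16.5 CPM in the other KO libraries and 11.4 to 17.5 CPM in WT, and none of the 4 tested was called. No group of a clock loop gene was marked this way.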

How the results depend on the processing

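Over 24 alternatives per gene, the 9 called members kept their direction, and 31 calls were lost in all; Per3 and Nr1d2 were called in each, and 7 members in each of the 10 fits that left out 1 library. With libraries left out in turn, 2 to 3 members were called higher and 5 to 6 lower in KO. With the epithelial covariate, the immediate early covariate, or just KO 3 and KO 4 for the KO group, 0 were called higher, and the immediate early covariate left 2 lower; at an adjusted p under 0.01, 1 was higher. In the output and auxiliary list the immediate early covariate left 1 higher and 5 lower, and libraries left out gave 2 higher and 8 to 9 lower. In the turnover list, where the fit with all libraries had 0 higher and 1 lower, total counts gave 2 higher and 0 lower, DESeq2 gave 2 and 2, and the keratocyte covariate gave 2 lower. The fit without a filter, the replicate block, the epithelial and immediate early covariates, KO 3 and KO 4 alone and the 0.01 threshold each gave 0 lower, and libraries left out gave 0 to 1 higher and 0 to 2 lower. All tested genes called numbered 2716, but 1691 with the replicate block, 1122 with the epithelial covariate and 343 with the immediate early covariate. They numbered 1105 with KO 3 and KO 4, 1024 at the 0.01 threshold, and 1815 to 3094 with libraries left out. The highest totals were 3578 with DESeq2 and 3297 with the keratocyte covariate. Same-numbered libraries had correlations of deviations from -0.42 to 0.09, so no pairing was seen on this measure. It cannot settle whether the numbers pair pools, which the labels do not say. With the replicate block Cry1 was not called (log2 fold change 0.42, edgeR adjusted p = 0.059) and 2 members were higher and 6 lower. Fewer samples or a term that overlaps with genotype reduce power by construction. Some fold changes also became smaller with the epithelial covariate, as for Per1 (-0.65 without it, -0.42 with it). Others did not, as for Nr1d1 (-0.50 and -0.58). Why calls were lost was not tested.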
